A study of Mus musculus with 6 samples.

Results

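The 10 genes described here encode the HSP70, HSP110 and HSP90 chaperones of the cytosol that are known from germ cells or from the heat shock response. They are Hspa2, Hspa1l and Hspa4l, the forms known for high levels in male germ cells, Hspa1a, Hspa1b, Hsph1 and Hsp90aa1, the stress-inducible forms, and Hspa8, Hspa4 and Hsp90ab1, the constitutive forms. They were chosen as a list of gene symbols and matched by GENCODE symbol, which found 10 of 10 among the 55536 genes counted. RNA of whole testes was sequenced in 1 library per mouse, from 3 KOStra8 mice and 3 HETStra8 mice, all 7 weeks old. KOStra8 mice have a floxed and a deleted Sel1L allele and Stra8-Cre, so that SEL1L, a subunit of the ER-associated degradation complex, is lost from germ cells once the Stra8 promoter has been active. That Cre leaves SEL1L in spermatogonia, and in Sertoli cells. HETStra8 mice are littermates. The deposited record gives them 1 floxed and 1 deleted allele and names no Cre, while the study also uses the name for mice with 1 floxed and 1 wildtype allele plus Stra8-Cre, and no genotype is given for the single mice.

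HSP70 binds short hydrophobic stretches of unfolded proteins in a cycle driven by ATP, J-domain proteins start that cycle, and HSP110 proteins restart it by exchanging the nucleotide. HSP90 receives part of the clients from HSP70 through adaptor proteins that hold the tails of both chaperones. Spermatogenesis has chaperones of its own: HSPA2 appears in meiosis, where it is needed for the synaptonemal complex to come apart and for CDK1 to pair with cyclin B1, HSPA1L appears in spermatids, HSPA4L is the testis-rich HSP110 protein, and HSP90AA1 is needed for meiosis in the male. The question for these genes was whether germ cells without SEL1L hold other amounts of the cytosolic chaperone mRNAs, and whether the germ cell forms and the others moved differently.

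The ends of the coding sequences are shown first because they tell the families apart in the order that the results follow. Each line holds the last 30 coding bases, stop codon included, of the longest coding sequence in GENCODE release 21, on the strand of the mRNA, and the capitals mark the codons of the EEVD tail, which the adaptors between HSP70 and HSP90 bind. The first 5 genes are the HSP70 genes, the next 3 the HSP110 genes and the last 2 the HSP90 genes.
Hspa2: ggagggcccaccatcGAGGAAGTGGACtag
Hspa1l: acaggccctaccatcGAGGAAGTAGATtag
Hspa1a: tcaggacccaccatcGAGGAGGTGGATtag
Hspa1b: tcaggacccaccatcGAGGAGGTGGATtag
Hspa8: tcaggccccaccattGAAGAGGTGGATtaa
Hspa4: aagaagcttcctgagatggacattgattga
Hspa4l: accgactccggagagatggaagtggactaa
Hsph1: aagggctctgtcaacatggacctggactag
Hsp90aa1: gacacatcacgcatgGAAGAAGTAGACtaa
Hsp90ab1: gatgcctcgcgcatgGAAGAGGTGGATtaa
All 5 HSP70 genes and both HSP90 genes end with these codons, and none of the 3 HSP110 genes does. Hspa1a and Hspa1b share the whole stretch, and over their aligned coding sequences they were 99.6% identical. Hspa2 was 75.4% identical to Hspa8, Hspa4l 67.3% to Hspa4 and Hsp90aa1 76.3% to Hsp90ab1.

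Positions are those of GRCm38. Hspa2 lies on the plus strand at chr12:76404176-76406938 and Hsp90aa1 on the minus strand at chr12:110690605-110702728. Hspa1b at chr17:34956436-34959238 and Hspa1a at chr17:34969190-34972156 lie on the minus strand, and Hspa1l at chr17:34972703-34979285 lies on the plus strand. The 3 genes thus sit within 22850 bases, with 546 bases between the starts of Hspa1a and Hspa1l, which are read away from each other. Hsp90ab1 is on the same chromosome at chr17:45567775-45573271. Hspa4 is at chr11:53259814-53300457, Hspa4l at chr3:40744495-40796103, Hspa8 at chr9:40800984-40810087 and Hsph1 at chr5:149614287-149636376. All 10 are protein-coding, and the counts cover their exons.

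The 100 bases from position -120 to -21 before the RefSeq start are shown for these 3 neighbours because Hspa1l was counted at a far higher level per length than Hspa1a and Hspa1b beside it. Capitals mark a match to the heat shock element of 2 units, searched as GAANNTTC or TTCNNGAA on either strand. The windows hold no annotated exon and are those of GRCm38.p6, for Hspa1a chr17:34972177-34972276, for Hspa1b chr17:34959259-34959358 and for Hspa1l chr17:34972583-34972682, each written on the strand of its gene.
Hspa1a: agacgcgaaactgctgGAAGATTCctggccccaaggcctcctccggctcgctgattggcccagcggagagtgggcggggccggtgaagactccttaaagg
Hspa1b: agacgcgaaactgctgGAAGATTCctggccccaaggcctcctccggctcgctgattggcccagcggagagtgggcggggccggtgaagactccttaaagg
Hspa1l: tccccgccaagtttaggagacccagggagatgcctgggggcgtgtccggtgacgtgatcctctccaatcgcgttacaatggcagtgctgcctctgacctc
The stretches of Hspa1a and Hspa1b are the same, with the match at position -104, and that of Hspa1l holds none. RefSeq promoter windows, from 250 bases before to 50 bases after the start, were matched for 7 of the 10 genes. Hspa8, Hsp90aa1 and Hsp90ab1 were not matched. Beside Hspa1a and Hspa1b, Hsph1 held matches, the first at position -33 from the first of its 2 RefSeq starts. It also held the element of 3 units, in which NNGAA follows GAANNTTC or NNTTC follows TTCNNGAA. That element begins at position 36 and overlaps matches of 2 units. Counted from the other start, these positions are -54 and 15. Hspa2, Hspa1l, Hspa4 and Hspa4l held no match in these windows. For Hspa2 and Hspa4l the RefSeq start lies inside the GENCODE gene given above, as do both starts of Hsph1. The Hspa4l window, chr3:40745363-40745662, lies wholly inside its gene, so the bases before that gene were not searched. Of 32851 RefSeq promoter windows of the same length, 15.1% held the element of 2 units and 0.603% that of 3 units.

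The libraries held 28875108 to 36526695 counts, and 21465 genes passed the filter on low counts, all 10 members among them. Sel1l, the targeted gene, was measured in CPM (read counts scaled to a common library size with edgeR's TMM factors) at 49.3, 47.6 and 42.4 in HETStra8 mice 1 to 3 and at 24.2, 22.0 and 20.3 in KOStra8 mice 1 to 3, a log2 fold change of -1.07 ± 0.10 (SE; edgeR, adjusted p = 0.00061). Spermatocyte markers summed to 4500 to 4790 CPM in HETStra8 and 4620 to 4820 CPM in KOStra8, and elongating spermatid markers to 15500 to 15600 and 13900 to 15600 CPM, with none of the 10 and 8 genes at 0. In whole testes, fewer cells of a type and less RNA per cell cannot be told apart.

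In CPM, Hsp90aa1 and the 3 germ cell forms were the highest of the 10 genes, while the heat-inducible HSP70 genes were counted at a few CPM. By mean CPM over the 6 mice, Hsp90aa1 ranked 16th, Hspa2 30th, Hspa4l 53rd and Hspa1l 109th of 21465 genes. Hspa4 followed at rank 400, Hsp90ab1 at 532, Hspa8 at 1305 and Hsph1 at 3469, while Hspa1a ranked 13691 and Hspa1b 13956. Together the 10 genes took 0.567% to 0.654% of all counts of a library, and the 3 germ cell forms 0.327% to 0.342%. Hspa1a and Hspa1b together took 0.000474% to 0.000929%.

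**Figure D1:**
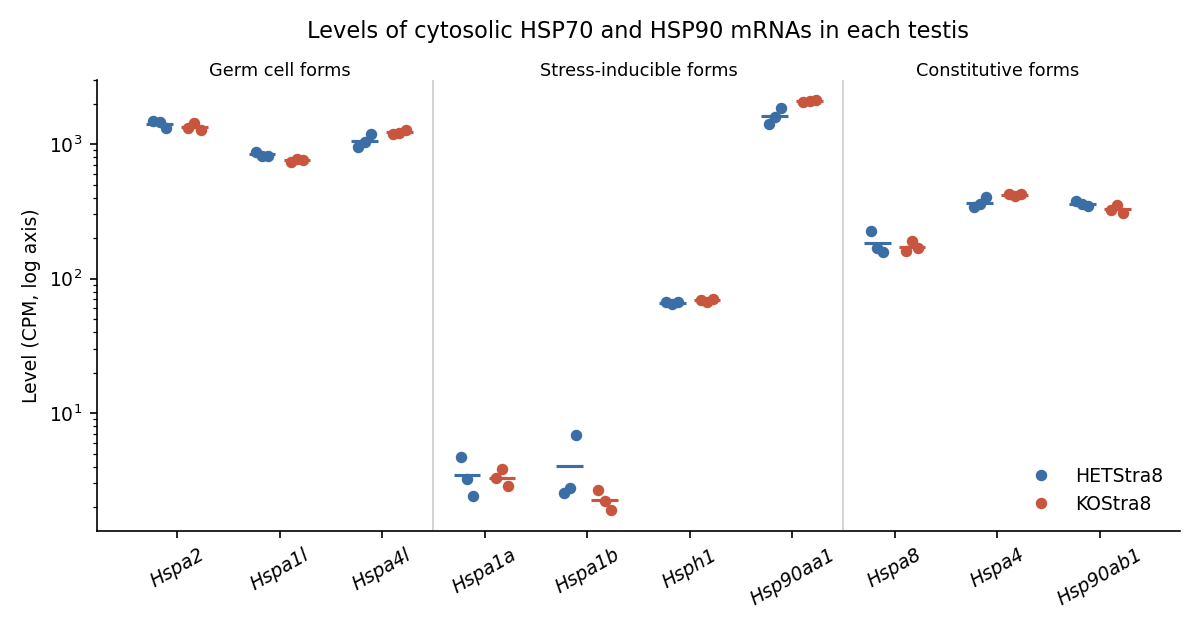
Level of each gene in CPM on a log axis, by class of chaperone; points are mice 1 to 3 from left to right within a group and bars are group means. Hspa1a and Hspa1b lie below 10 CPM in all 6 mice, Hspa2 and Hsp90aa1 between 1267 and 2113 CPM.

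Levels of different genes were compared per kilobase of exon (RPKM, from TMM-scaled CPM and the summed exon length). In HETStra8 mice the order was Hspa2 at 537 ± 36.0 RPKM (mean ± SD, n = 3 as in all group means here), Hsp90aa1 at 412, Hspa1l at 339 ± 15.2, Hsp90ab1 at 120, Hspa4l at 90.1, Hspa4 at 66.3, Hspa8 at 42.9, Hsph1 at 9.13, Hspa1b at 1.45 and Hspa1a at 1.17 RPKM. The ranges of neighbours in this order did not overlap except for Hspa1b and Hspa1a, though the lowest Hsp90aa1 value of 358 RPKM barely exceeded the highest Hspa1l value of 356 RPKM. In KOStra8 mice Hsp90aa1 came first at 531 RPKM, and its range overlapped that of Hspa2 at 507 ± 34.7 RPKM. Hsp90ab1 at 109 and Hspa4l at 103 RPKM overlapped as well, and Hspa1a at 1.12 RPKM came before Hspa1b at 0.804. The other neighbours did not overlap in KOStra8. These levels depend on the length used: with that of the longest transcript in place of all exons, Hspa2 was at 563, Hspa4l at 112, Hspa8 at 58.4 and Hsph1 at 13.9 RPKM in HETStra8. By the length of all exons, Hspa2 exceeded Hspa8, the constitutive HSP70 of most tissues, 10.6 to 14.1-fold in RPKM in the single mice as counted. Hspa1l exceeded the sum of its neighbours Hspa1a and Hspa1b 101 to 188-fold in RPKM as counted. Most 50-base sequences of Hspa1a (60.35%) and Hspa1b (62.31%) also occur in another gene on the same strand, against 9.57% for Hspa1l, and were such reads left out of the counts, this ratio would be too high. The same limit holds for Hspa2 over Hspa8, with 38.58% of such sequences in Hspa8 and 0.0% in Hspa2. Hsp90aa1 had 47.49% of such sequences and Hsp90ab1 3.44%, and were such reads left out, the level of Hsp90aa1 would be too low.

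A gene was called where it differed over 2-fold with an adjusted p under 0.01. By edgeR's quasi-likelihood test, adjusted over all 21465 genes, no member was called in either direction, nor by DESeq2 or limma-voom. DESeq2 gave Hspa1a and Hspa1b no adjusted p, and their log2 fold changes there, -0.07 and -0.85, were within a fold of 2. Of all genes tested, 0.00466% were called higher and 0.00466% lower, 1 gene each way. At an unadjusted p under 0.05, 5 members were found. Hspa4, Hspa4l and Hsp90aa1 were higher in KOStra8, against 7.13% of all genes, and Hspa1l and Hspa1b were lower, against 5.12% of all genes. The median log2 fold change was -0.08 over the 3 germ cell forms, -0.10 over the 3 constitutive forms and -0.00 over the 4 stress-inducible forms, of which 2 were above and 2 below 0. Over all 10 it was -0.07 and over all genes -0.01. The 95% confidence interval of the log2 fold change lay within a fold of 2 either way for 9 of the 10 genes, the exception being Hspa1b.

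**Figure D2:**
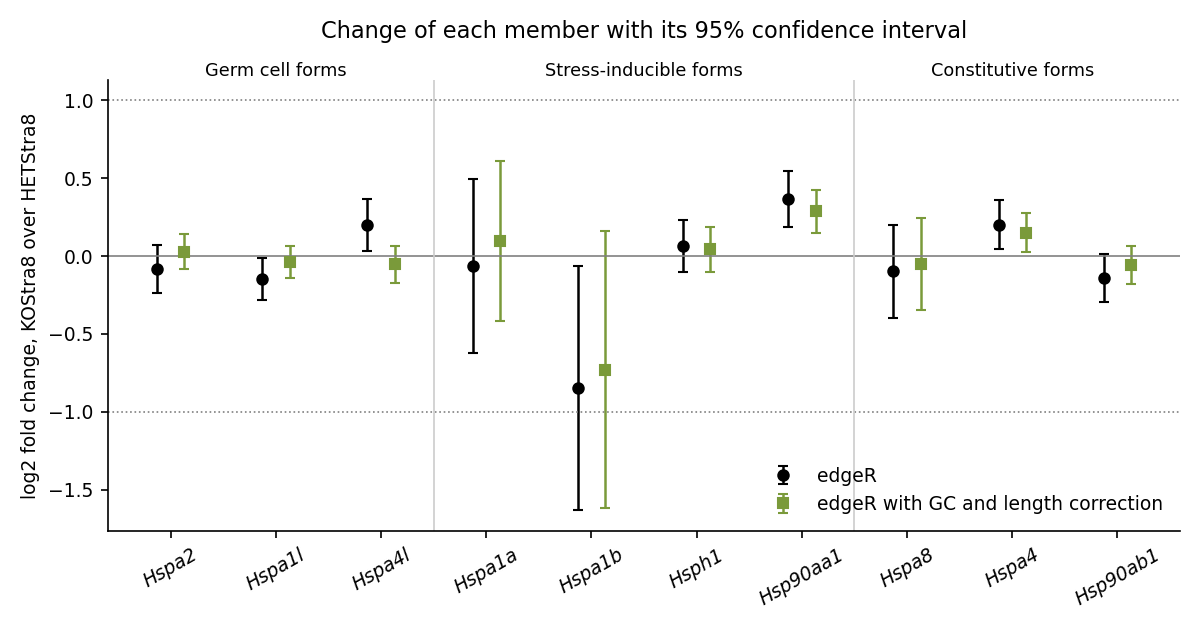
Log2 fold change of KOStra8 over HETStra8 for each gene with its 95% confidence interval, from edgeR as reported (circles) and with offsets corrected for GC content and length (squares); dotted lines mark a fold of 2. Hsp90aa1 lies at 0.37 and 0.29, and Hspa4l moves from 0.20 to -0.05.

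Of the germ cell forms, Hspa2 was at 1480, 1472 and 1311 CPM in HETStra8 and at 1314, 1444 and 1267 CPM in KOStra8 mice. The groups overlapped, and KOStra8 mouse 2 was close to the 2 highest HETStra8 mice. Means were 1421 ± 95.1 and 1342 ± 91.7 CPM, and the log2 fold change was -0.08 with a 95% confidence interval of -0.24 to 0.07 (edgeR, adjusted p = 0.667). Hspa2 shared no 50-base sequence with another gene.

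Hspa1l, the HSP70 of spermatids, was at 881, 814 and 818 CPM in HETStra8 and at 742, 769 and 760 CPM in KOStra8. Every KOStra8 mouse was below every HETStra8 mouse, with HETStra8 mouse 1 the highest. The log2 fold change was -0.15, with an interval of -0.28 to -0.01 and an adjusted p of 0.376 by edgeR, so the difference failed the correction over all genes. The antisense gene Gm10501 covers 2387 bases of it, yet it was given only 18 to 57 counts a library against the 22263 to 27742 of Hspa1l.

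Hspa4l, the testis-rich HSP110 gene, was at 952, 1039 and 1198 CPM in HETStra8 and at 1188, 1202 and 1270 CPM in KOStra8. HETStra8 mouse 3 lay inside the KOStra8 range and the other two below it. Its log2 fold change was 0.20 (interval 0.03 to 0.37; edgeR, adjusted p = 0.343) and turned to -0.05 with the correction for GC content and length.

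Of the stress-inducible forms, Hsp90aa1, the inducible HSP90 that male germ cells make at high levels, was at 1407, 1600 and 1849 CPM in HETStra8 and at 2066, 2081 and 2113 CPM in KOStra8. All 3 KOStra8 mice stood above the 3 HETStra8 mice, and the HETStra8 mice were spread more widely, with a coefficient of variation of 13.7% against 1.15% in KOStra8. Over 4406 genes with a mean of at least 50 CPM, the median coefficient was also higher in HETStra8 (7.30%) than in KOStra8 (4.67%). Means were 1619 ± 222 and 2087 ± 24.0 CPM, so that KOStra8 held 128.9% of the HETStra8 level. The log2 fold change was 0.37 ± 0.08 (SE) with an interval of 0.19 to 0.55, the largest of the members upward, and an adjusted p of 0.135 by edgeR (unadjusted p = 0.000755).

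The adjusted p of Hsp90aa1 depended on the setting while its direction did not. It was 0.000370 without HETStra8 mouse 3, 0.000117 with no filter on low counts and 0.0135 with DESeq2, and over 16 alternatives it ran from 0.000117 to 0.557. The log2 fold change stayed between 0.27 and 0.48 in these. The pseudogene Gm12346 and 2 others share 50-base sequences with Hsp90aa1 and were given counts equal to 0.608% to 0.719% of its own. With those counts added, the log2 fold change was again 0.37.

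**Figure D3:**
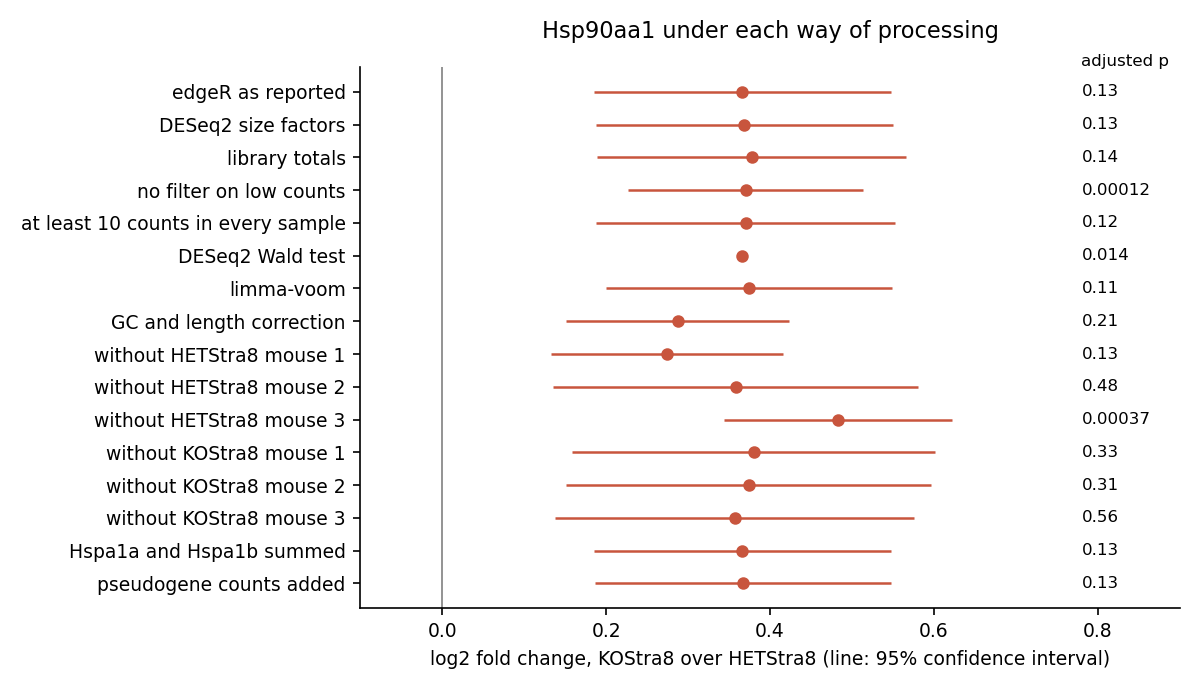
Log2 fold change of Hsp90aa1 by way of processing, with its 95% confidence interval (none is drawn for the DESeq2 Wald test) and the adjusted p at the right. Settings with the replicate number as a block are not shown. All points lie above 0, between 0.27 and 0.48, and the adjusted p is lowest without the filter and without HETStra8 mouse 3.

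Hsph1, the inducible HSP110 gene, was at 66.7, 65.2 and 67.2 CPM in HETStra8 and at 69.7, 67.5 and 71.1 CPM in KOStra8. The groups did not overlap, but the gap between the highest HETStra8 and the lowest KOStra8 mouse was small. Its log2 fold change was 0.07, with an interval of -0.10 to 0.23 and an adjusted p of 0.767 by edgeR.

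Hspa1a, the heat-inducible HSP70, had 149, 109 and 81 counts in HETStra8 and 114, 111 and 104 counts in KOStra8, or 3.47 ± 1.17 and 3.32 ± 0.495 CPM. The groups overlapped fully. Hspa1b, its near-identical copy, had 80, 94 and 228 counts in HETStra8 and 93, 64 and 69 counts in KOStra8. HETStra8 mouse 3 stood alone with 228 counts, and the other 5 mice had 64 to 94. The log2 fold change of Hspa1b was -0.85 (interval -1.63 to -0.06; edgeR, adjusted p = 0.377), and without HETStra8 mouse 3 it was -0.23. Since the copies share most of their sequence, how the reads were split between the copies is uncertain; summed, they gave a log2 fold change of -0.44 with an adjusted p of 0.385.

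Of the constitutive forms, Hspa8, the housekeeping HSP70 also called HSC70, was at 228, 170 and 156 CPM in HETStra8 and at 159, 189 and 169 CPM in KOStra8. HETStra8 mouse 1 was the highest and the other 5 mice mixed. The log2 fold change was -0.10 (interval -0.39 to 0.20; edgeR, adjusted p = 0.807) and became 0.08 without HETStra8 mouse 1. Processed pseudogenes share 38.58% of its 50-base sequences and were given counts equal to 0.794% to 11.9% of its own.

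Hspa4, the widespread HSP110 gene, was at 340, 359 and 401 CPM in HETStra8 and at 424, 414 and 426 CPM in KOStra8. Every KOStra8 mouse was above every HETStra8 mouse, with HETStra8 mouse 3 the nearest. Its log2 fold change was 0.20 (interval 0.05 to 0.36; edgeR, adjusted p = 0.299), and 0.15 with the correction for GC content and length. Hsp90ab1, the constitutive HSP90, was at 375, 361 and 345 CPM in HETStra8 and at 323, 352 and 307 CPM in KOStra8. KOStra8 mouse 2 lay inside the HETStra8 range and the other two below it, for a log2 fold change of -0.14 (interval -0.29 to 0.02; edgeR, adjusted p = 0.450).

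By CPM alone, 3 members (Hspa4, Hsph1 and Hsp90aa1) had all KOStra8 mice above all HETStra8 mice, as did 9.33% of all genes, and 1 member (Hspa1l) had them all below, as did 8.43% of all genes. Without HETStra8 mouse 3, Hspa4, Hspa4l and Hsp90aa1 were higher at an adjusted p below 0.05 (edgeR, adjusted p = 0.0202, 0.0120 and 0.000370), as were 3.93% of the genes then tested. That mouse had the highest level of the HETStra8 group for each of these 3 genes. It was within the range of the other two for Hspa1l and the lowest of its group for Hspa2, Hspa8 and Hsp90ab1.

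The members' differences lay along their GC content, as did those of all genes. Log2 fold changes fell with the GC content of the transcripts across the 21457 genes with a value (Spearman's rho = -0.472, across genes, which are not independent). The 4 members above 0 had the lowest GC content of the 10, with 42.4% for Hspa4l, 44.9% for Hsp90aa1, 46.3% for Hspa4 and 47.3% for Hsph1, and the 6 members below 0 had 49.5% to 58.9%. With offsets corrected for GC content and length, Hspa4 and Hsp90aa1 were still higher at an unadjusted p below 0.05, against 3.75% of all genes, and no member was lower, against 3.21% of all genes. The corrected log2 fold change of Hsp90aa1 was 0.29 (interval 0.15 to 0.42; edgeR, adjusted p = 0.212), that of Hspa1l -0.04 and that of Hspa2 0.03.

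The makeup of each family was compared in shares of its summed RPKM. Hspa2 made up 58.3 ± 1.51% of the 5 cytosolic HSP70 mRNAs in HETStra8 and 59.3 ± 1.28% in KOStra8, and Hspa1l 36.8 ± 1.35% and 35.8 ± 1.35%. Hspa8 held 4.63% and 4.68%, and Hspa1a and Hspa1b each less than 0.3% in every mouse. The mRNA of these 5 cytosolic HSP70 genes, as counted, was thus nearly all of germ cell forms in both genotypes. Among the HSP110 genes Hspa4l held 54.4 ± 1.03% and 54.6 ± 0.752%, Hspa4 40.1% and 40.3%, and Hsph1 5.55% and 5.05%. For HSP90 the share of Hsp90aa1 was 74.1%, 77.2% and 80.4% in HETStra8 and 83.0%, 81.8% and 84.0% in KOStra8, without overlap.

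**Figure D4:**
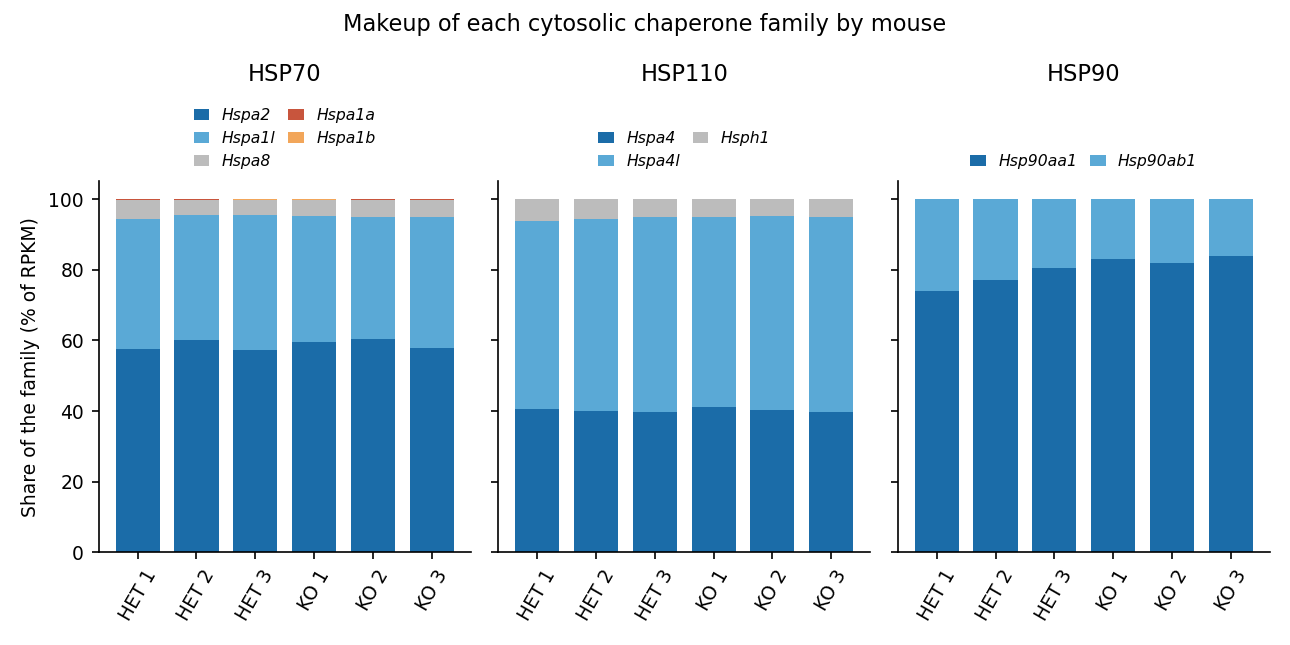
Share of each gene in the summed RPKM of its family in each mouse (HET, HETStra8; KO, KOStra8). Hspa2 and Hspa1l fill nearly the whole HSP70 bar in all 6 mice, Hspa1a and Hspa1b are too small to be seen, and the Hsp90aa1 share is 74.1% to 80.4% in HETStra8 and 81.8% to 84.0% in KOStra8.

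Whether a germ cell or inducible form moved apart from its constitutive partner was tested on log2 ratios of CPM with a two-sided exact permutation test, which cannot go below p = 0.1 with 3 mice a group. The log2 ratio of Hspa2 to Hspa8 was 2.96 ± 0.23 in HETStra8 and 2.96 ± 0.08 in KOStra8, a difference of -0.00 (exact p = 1.0). That of Hspa4l to Hspa4 was 1.53 ± 0.05 and 1.53 ± 0.04 (exact p = 1.0). The ratio of Hsp90aa1 to Hsp90ab1 was 1.91, 2.15 and 2.42 in HETStra8 and 2.68, 2.56 and 2.79 in KOStra8. These values did not overlap and differed by 0.52, with the smallest exact p the design allows, 0.1, or 0.3 adjusted over the 3 ratios. With the GC and length correction the differences were 0.35 for Hsp90aa1 to Hsp90ab1, again without overlap, and -0.21 for Hspa4l to Hspa4, each with an exact p of 0.1.

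**Figure D5:**
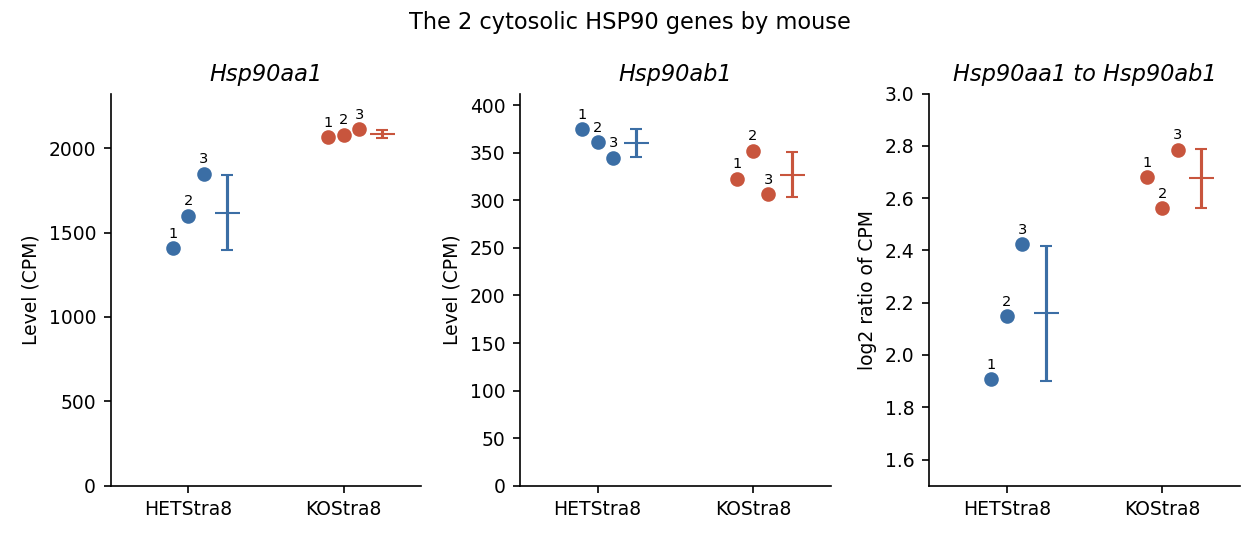
CPM of Hsp90aa1 and Hsp90ab1 (axes from 0) and the log2 ratio of the pair (axis from 1.5) in each mouse, numbered 1 to 3; crossbars are means and whiskers SD. KOStra8 mice lie between 2066 and 2113 CPM for Hsp90aa1, and their ratios of 2.56 to 2.79 lie above all HETStra8 ratios.

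HSP90 protein served as the loading control of the study's Western blots; protein levels were not analysed here.

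Of the 6 HSP70 and HSP90 genes of the ER and the mitochondria none was called. With an unadjusted p under 0.05, 2 of them were higher and none lower, where 7.13% and 5.12% of all genes were. Hsp90b1, the HSP90 of the ER, was at 494 ± 30.8 CPM in HETStra8 and 599 ± 22.5 CPM in KOStra8 (log2 fold change 0.28; edgeR, adjusted p = 0.150). Hspa5, the HSP70 of the ER also called BiP, was at 544 ± 8.03 and 602 ± 13.5 CPM (0.15; adjusted p = 0.367). Neither overlapped between the groups, with KOStra8 above, as for 9.33% of all genes. Trap1, another of the 6, did not overlap either, with KOStra8 below, as for 8.43% of all genes (log2 fold change -0.13; edgeR, adjusted p = 0.498). With the GC and length correction Hsp90b1 and Hspa5 were at 0.13 and 0.12, still with an unadjusted p under 0.05. Hspa9, the mitochondrial HSP70, was lower at that p (-0.13). Of all genes 3.75% were then higher and 3.21% lower at that p. None of the 3 HSP70 relatives outside the list, Hspa12a, Hspa12b and Hspa14, had an unadjusted p below 0.05.

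Of 7 heat shock factor genes and partners, 5 were tested, and the sole one with an unadjusted p below 0.05 was Hsf2bp, a meiotic partner of HSF2, at 65.5 ± 9.84 CPM in HETStra8 and 52.6 ± 4.18 CPM in KOStra8 (log2 fold change -0.32; edgeR, adjusted p = 0.276). Of 13 other genes of the heat shock response, 11 had a log2 fold change below 0, as did 11060 of 21465 genes in all, with a median of -0.11. After the GC and length correction 8 of the 13 were below 0 and the median was -0.02. Hmox1, which degrades heme, was at 9.31 ± 0.699 and 6.29 ± 0.763 CPM (-0.57; adjusted p = 0.197). Bag3, which joins HSP70 to small heat shock proteins, was at 44.5 ± 3.25 and 38.3 ± 2.69 CPM (-0.22; adjusted p = 0.386), and at -0.08 with an unadjusted p above 0.05 after the correction. No gene of this list was higher at an unadjusted p below 0.05.

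Of 23 HSP90 co-chaperones, none was called. With an unadjusted p under 0.05, 2 were higher and 3 lower, against 7.13% and 5.12% of all genes. With the GC and length correction 0 were higher and 2 lower, against 3.75% and 3.21% of all genes. The median log2 fold change was -0.04. The clearest by p were Unc45a, the general myosin chaperone, at 20.5 ± 1.55 and 16.4 ± 1.6 CPM (log2 fold change -0.32; edgeR, adjusted p = 0.304), Chordc1 at 15.8 ± 0.839 and 19.5 ± 1.53 CPM (0.31; adjusted p = 0.308) and Cdc37l1 at 97.5 ± 9.86 and 113 ± 5.44 CPM (0.21; adjusted p = 0.355). With the GC and length correction these 3 were at -0.18, -0.09 and 0.04 on the log2 scale, each with an unadjusted p above 0.05. Of 9 HSP70 co-chaperones none was higher and 2 were lower at that p as reported. None was lower after the correction, against 3.21% of all genes. Bag6, which keeps HSPA2 from degradation in the testis, was at 1490 ± 95.5 and 1260 ± 33.4 CPM without overlap (log2 fold change -0.24; edgeR, adjusted p = 0.183), and at -0.10 after the correction. Hspbp1, a nucleotide exchange factor of HSP70, was at 47.8 ± 3.98 and 40.8 ± 3.96 CPM with overlap (-0.23; adjusted p = 0.385), and at -0.07 after the correction.

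Among 11 partners and clients of HSPA2 in germ cells, Bag6 among them again, 1 was higher and 1 lower in KOStra8 where the unadjusted p was under 0.05, against 7.13% and 5.12% of all genes. Nasp, a histone chaperone of spermatocytes that binds HSPA2 and HSP90, was at 992, 1112 and 1368 CPM in HETStra8 and at 1407, 1483 and 1581 CPM in KOStra8. Its values did not overlap between the groups, and HETStra8 mouse 3 was again nearest to KOStra8 (log2 fold change 0.37; edgeR, adjusted p = 0.231; 0.21 after the correction).

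Most somatic markers had log2 fold changes below 0, beside the members below 0 and 11060 of 21465 genes in all. This held for 8 of 8 Sertoli cell markers, which summed to 240 to 265 CPM in HETStra8 and 219 to 233 CPM in KOStra8, and for 7 of 7 Leydig cell markers, with 506 to 755 and 427 to 547 CPM. It also held for 5 of 5 peritubular myoid, 6 of 7 macrophage and 4 of 5 endothelial markers. Of the germ cell markers, 7 of 8 for elongating spermatids and 4 of 7 for round spermatids were below 0. So were 3 of 10 spermatocyte and 5 of 8 spermatogonia markers. With the GC and length correction 6 of the Sertoli, 7 of the Leydig, 3 of the myoid, 6 of the macrophage and 4 of the endothelial markers were below 0. The elongating spermatid, round spermatid, spermatocyte and spermatogonia lists then had 4 each below 0, against 10857 of 21465 genes in all. None of these markers was at 0. Their part in the values of Hspa1l, Hspa8 and Hsp90ab1 was not tested.

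Across the 6 mice, the levels of some members went together. Pearson's r of log2 CPM was 0.99 between Hspa4 and Hsp90aa1, 0.97 between Hspa4 and Hspa4l and 0.96 between Hspa4l and Hsp90aa1, and 0.91 between Hspa2 and Hsp90ab1. Between Hspa1l and Hsp90aa1 it was -0.93, while Hspa1b had r between -0.55 and 0.31 with the other 9. These are descriptions over 6 libraries of 2 genotypes, which mix the difference between the groups, the GC trend and the spread between mice. Of 10012 genes with a mean of at least 10 CPM (10013 for Hspa1a and Hspa1b), those most like Hsp90aa1 were Lrriq1 and Zfp991 (r = 0.9986 each) and Sec63 (r = 0.9981). Those most like Hspa2 were Nfkbia (r = 0.9991), Preb (r = 0.9906) and Tmem206 (r = 0.9874). Cnbd1, Rasa1 and Lrrcc1 were the most like Hspa4 (r = 0.9994, 0.9992 and 0.9992), Ccdc7b, Fam71d and Wdr43 the most like Hspa4l (r = 0.9972, 0.9966 and 0.9957), and Cry2, Sin3b and Oxa1l the most like Hspa1l (r = 0.9947, 0.9944 and 0.9901). The patterns nearest to Hsph1 were those of Xiap, Prpf18 and Tmed7 (r = 0.9930, 0.9839 and 0.9795), and to Hsp90ab1 those of 1700104B16Rik, Myl6 and Rpl19 (r = 0.9955, 0.9931 and 0.9926). For Hspa1a they were Ttc27, Rbsn and Mrps7 (r = 0.9990, 0.9900 and 0.9829) and for Hspa1b Rad54b, 1700109G14Rik and Gm15756 (r = 0.9897, 0.9815 and 0.9739). Each r was picked as among the highest of so many genes over 6 mice. Such a pick gives high values by itself, and shared regulation was not tested.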

How the data were processed

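Whole testes of 3 KOStra8 and 3 HETStra8 mice, numbered as in the sample titles, gave directional poly(A)+ RNA libraries read as pairs. The authors deposited 1 table of raw read counts per gene and mouse, without normalization. The submitters' processing notes name STAR 2.7.1a and featureCounts 1.6.0, among other tools, and the build GRCm38 (mm10), with no role or order. The strand setting and the treatment of reads that fit several genes are not given in the sources used here, and the latter bears on Hspa1a, Hspa1b, Hspa8 and Hsp90aa1.

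Symbols, positions, GC content and exon lengths came from GENCODE mouse release 21 (GRCm38), in which all 55536 identifiers were found. Counts were fitted in R 4.3.3 with edgeR 4.0.16 (filterByExpr, TMM, robust quasi-likelihood F test with genotype as the only term, Benjamini-Hochberg adjustment over 21465 genes, cutoffs as in the study). The common biological coefficient of variation was 0.160. Promoter windows came from a RefSeq table of GRCm38.p6, coding sequences from GENCODE. Shared sequence was the share of a gene's 50-base sequences found in another gene. As alternatives, TMM gave way to the size factors of DESeq2 or to plain library totals, and the filter to none or to 10 counts in every library. Others were DESeq2 1.42.0, limma-voom (limma 3.58.1), the replicate number as a block, loess offsets for GC content and length (span 0.3, genes above a log2 CPM of 2, 8 genes without a GC value left as they were), both together, Hspa1a and Hspa1b summed, an adjusted p of 0.05 without a fold, and each mouse left out. Adding the counts of pseudogenes was chosen after seeing the data.

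The fits were tested on simulated counts with known changes. The members and the gene lists were chosen with earlier results of these data known. Named are the 10 members, Sel1l, up to 3 genes of each other list with an unadjusted p below 0.05, and the 3 genes whose log2 CPM followed each member most closely over the 6 mice (for Hspa8 these are not reported here); other genes named were chosen after their values were seen.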

Additional observations from a re-analysis of the deposited data

How the results depend on the processing

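No member passed the cutoffs in either direction under any of the alternatives that were run. DESeq2 gave Hspa1a and Hspa1b no adjusted p, so neither could pass a cutoff on it there. With an adjusted p of 0.05 and no fold required, 0 members were found as reported, 1 (Hsp90aa1, higher) with no filter or with DESeq2, and 3 (Hspa4, Hspa4l and Hsp90aa1, higher) without HETStra8 mouse 3. Higher at that p were 4 of 21465 genes in all as reported, 542 of 35894 with no filter and 868 of 22091 without that mouse. With DESeq2 they were 306 of the 35879 genes with an unadjusted p. Not all of those 35879 had an adjusted p, so the share among genes with one was higher. At an unadjusted p below 0.05, the members lower in KOStra8 numbered 2 as reported, against 1100 of 21465 genes in all. They numbered 1 with no filter (1528 of 35894 genes), with DESeq2's Wald test (1038 of 35879) or with limma-voom (1097 of 21465). With the GC and length correction 0 were lower (688 of 21465 genes). Leaving out 1 mouse gave 0 to 2, against 499 of 22023 to 1947 of 22091 genes. Those higher numbered 3 as reported (1530 of 21465 genes). Without 1 mouse they numbered 1 to 3, against 945 of 22023 to 2428 of 22091 genes. The GC and length correction turned Hspa2 (0.0293 on the log2 scale), Hspa1a (0.0967) and Hspa4l (-0.0522). The difference in the log2 ratio of Hspa2 to Hspa8 went from -0.0018 to 0.0655. That of Hspa4l to Hspa4 went from 0.0001 to -0.205, and its values then did not overlap between the groups. The cause was not tested. Leaving out 1 mouse gave log2 fold changes of -0.259 to 0.222 for Hspa1a and -0.193 to 0.0816 for Hspa8, both turned by HETStra8 mouse 1 and Hspa1a also by KOStra8 mouse 3 (0.0322 without it), and differences of -0.133 to 0.0758 for the ratio of Hspa2 to Hspa8, -0.0225 to 0.0235 for Hspa4l to Hspa4 and 0.390 to 0.648 for Hsp90aa1 to Hsp90ab1. HETStra8 mouse 3 decided the size of Hspa1b (-0.234 without it).

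Deviations from the group means correlated at -0.07, -0.12 and 0.18 between mice of the same number, for mice 1, 2 and 3. Mice of unlike number gave -0.19 to 0.25. With so few mice these values cannot tell whether the numbers pair them. With the replicate number as a block, 3 members were higher and 0 lower with an unadjusted p under 0.05, against 1628 and 1002 of 21465 genes. Hsp90aa1 then had an adjusted p of 0.0352 by edgeR, and 163 genes in all were higher at an adjusted p below 0.05. With the block and the GC and length correction 2 members were higher and 0 lower, against 822 and 615 of 21465 genes. Log2 fold changes were then 0.0290 for Hspa2, 0.124 for Hspa1a and -0.0530 for Hspa4l. With 3 mice a group, the interval of Hspa1b, from about 64 counts a library upward, was the widest.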

Other observations

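The pseudogene Gm15459 (chr5:5781615-5783555), which shares sequence with Hspa8, was chosen after its values were seen. In HETStra8 mice 1 to 3 its counts were 44, 660 and 590, and in KOStra8 mice 1 to 3 they were 604, 46 and 35, so that HETStra8 mice 2 and 3 and KOStra8 mouse 1 had 17.3 to 19.6 CPM and the other 3 mice 0.959 to 1.59 CPM. The log2 fold change between the groups was -0.96 (edgeR, unadjusted p = 0.562). With its counts and those of the other pseudogenes added, Hspa8 had a log2 fold change of -0.14. The antisense gene Gm20481, which overlaps 2225 bases of Hspa1a, had 9 to 40 counts a library.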
